A study of Rattus norvegicus with 46 samples.

Results

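Iron-repleted and iron-deficient rats were compared at the top of the duodenal villus, with 3 repleted and 4 deficient arrays out of 46 in the series, 1 array per rat. They were chosen by their labels alone, and every probe set other than the 57 controls of the array was compared, 31042 in all. All 7 were Wistar rats (++), 1 month old when grouped, which were given a low iron diet and bled 2 to 3 ml every 3 days for 4 weeks. The repleted rats then had 50 µM ferric ammonium citrate in their drinking water for the 3 days before they were killed, and the deficient rats did not. The repleted group began with 4 rats and lost 1 under anesthesia. Wistar rats on a normal diet were the controls, and 3 groups of Belgrade (bb) rats, 1 on the normal diet alone and the others given iron for 3 or 6 days, entered the fit only to estimate the spread. The RNA came from pooled cryostat sections of a 1 cm duodenal segment, so every cell type of the villus top contributed to each value.

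Dietary iron is taken up in the duodenum by enterocytes, the absorptive cells that line the villus. Ferric iron is reduced at the brush border by Cybrd1 (duodenal cytochrome b), enters the cell through Slc11a2 (DMT1, the transporter that is mutated in Belgrade rats) and leaves it through Slc40a1 (ferroportin) with the help of the ferroxidase Heph (hephaestin). Iron shortage is known to raise several of these transcripts, through the hypoxia-inducible factor HIF-2α and, for some that carry iron-responsive elements, through iron regulatory proteins. Villus cells are replaced from the crypt within days, and enterocytes mature as they move toward the tip, while mucus-secreting goblet cells are scattered between them. The comparison therefore asks what 3 days of oral iron changed at the villus top of anemic rats.

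No probe set passed the test. Of the 31042 probe sets, 0 (0%) had an adjusted p under 0.05 in the limma fit, and 0 (0%) did so without repleted rat 3. At an unadjusted p under 0.05 there were 3717 (12%), of which 1546 were higher in the repleted rats (4.98%) and 2171 lower (6.99%). Without repleted rat 3 there were 2292 (7.38%), of which 1009 were higher (3.25%) and 1283 lower (4.13%). All values below are log2 intensities, and each difference is the repleted mean minus the deficient mean with its limma standard error. That error pools the spread of all 6 groups. It can be smaller than the repleted rats alone would give where rat 3 stood apart. For Alox15 the error was 0.87, with an SD of 3.16 in the repleted and 0.77 in the deficient rats. None of the repleted minus deficient differences was called with all 7 arrays or without repleted rat 3, so they are given as values. Leaving out other single rats produced calls: 43 without repleted rat 1, 55 without repleted rat 2 and 29 without deficient rat 4, against 0 without any one of the other deficient rats. The sets called without repleted rat 1 and without repleted rat 2 shared 1 probe set. With a single variance prior in place of the trend, 6 probe sets were called. The median difference over all probe sets was -0.01, against -0.21 under median centring and 0.12 on the values as deposited, and directions that turn with the scaling are given beside the gene or list.

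The top array of repleted rat 3 stood apart from the rest. It was the highest of the 20 counted top samples in 19.2% of probe sets and the lowest in 17.7%, together 36.8%, where an equal share would be 10%. Deficient rat 4 came next with 14.3%, followed by repleted rats 2 and 1 with 11.6% and 10.8%. The mean correlation of repleted rat 3 with its own group was 0.766, against 0.818 for both other repleted rats and 0.868 to 0.895 for the deficient rats. The value of 0.818 includes rat 3: repleted rats 1 and 2 correlated at 0.869 with each other. Its median deposited intensity was 1179 against 622 to 700 in the other 6 arrays, although all 7 had been scaled to the same trimmed mean. Its highest intensity was 1209242, against 272078 to 390588, and its hybridization spike-in probe sets for cre were at 18.76, against 17.11 to 17.56. The ratio of 3′ to 5′ Gapdh signal was 1.22 against 1.05 to 1.14, and that of β-actin 1.79 against 1.48 to 1.65. The same ratio for hexokinase was 7.58, inside the range of 0.973 to 34.5 of the other 6 arrays. Xist, the transcript of the inactive X chromosome, was at 13.94 in repleted rat 3 and at 6.27 to 6.86 in the other 6 rats. The Xist level was not particular to this array: the bottom array of repleted rat 3 read 14.64. Top arrays of control rat 4 (14.51), Belgrade rat 3 (14.64) and rat 2 of the Belgrade rats given iron for 3 days (14.75) were also high. Those of the Belgrade rats given iron for 6 days read 14.71 to 14.96. Xist thus differed within the repleted and the control group. Fits with array weights and with Xist as a covariate, run as alternatives, each gave 0 calls. Beyond these fits, the part of these features in the differences described here was not tested. Call counts and many of the differences are given with and without this rat. A difference printed once is that with all 3 repleted rats, unless stated otherwise.

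**Figure D1:**
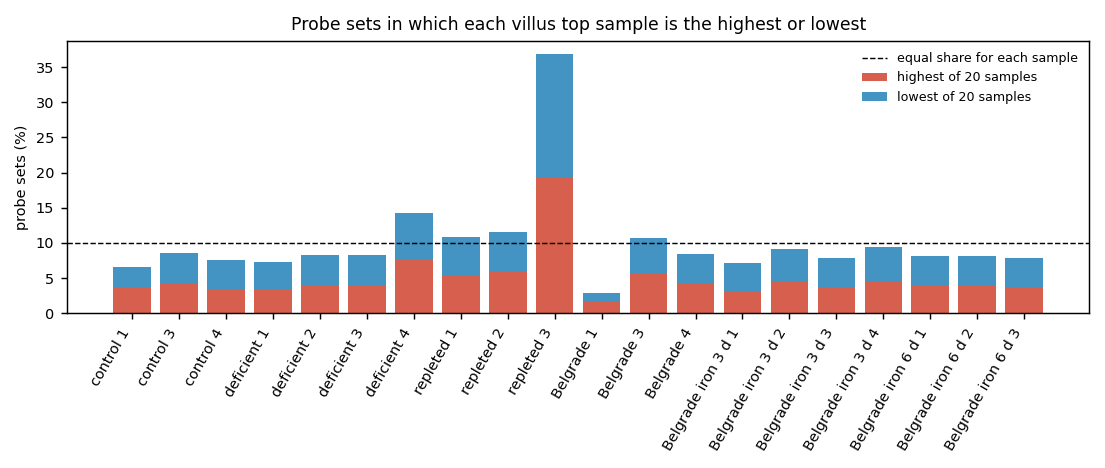
Percentage of the 31042 probe sets in which each of the 20 counted villus top samples had the highest (red) or lowest (blue) log2 intensity; the dashed line marks the equal share of 10%. Repleted rat 3 reached 36.8%, and deficient rat 4, the next, 14.3%.

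The main genes of iron uptake and export differed little between the groups, and none was called. The repleted rats read 17.28, 17.41 and 16.95 for Slc11a2 (1367877_at), in the order of rats 1 to 3. The deficient rats read 17.30, 17.18, 17.25 and 16.94, in the order of rats 1 to 4. The ranges overlapped, and repleted rat 3 and deficient rat 4 gave the lowest values. The difference was 0.04 ± 0.17, with a 95% interval of -0.30 to 0.39 (limma adjusted p 0.942), and 0.17 without repleted rat 3. Under median centring it was -0.08. A second Slc11a2 probe set (1388059_a_at) read 15.24, 16.15 and 14.61 against 15.84, 15.62, 16.16 and 14.89, a difference of -0.30 ± 0.28 that became 0.07 without repleted rat 3. Both group means lay above the control mean on each probe set: the deficient mean exceeded it by 0.41 and 1.41, and the repleted mean by 0.45 and 1.11. On 1367877_at the control samples read 16.43, 17.14 and 16.72 and overlapped both groups. On 1388059_a_at they read 14.03, 14.51 and 14.12, below every repleted and deficient rat.

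Cybrd1 (1377369_at) read 17.33, 17.51 and 16.93 in the repleted rats and 17.57, 17.49, 17.49 and 17.33 in the deficient rats. Only repleted rat 3 lay below the deficient range. The difference was -0.21 ± 0.16 (interval -0.54 to 0.13), and -0.05 without that rat (interval -0.42 to 0.33). The control mean was 16.76, which the deficient rats exceeded by 0.71 and the repleted rats by 0.50. Slc40a1 (1387130_at) read 17.11, 17.22 and 17.18 in the repleted and 17.43, 17.29, 17.32 and 17.12 in the deficient rats, a difference of -0.12 ± 0.15 that was the same without repleted rat 3 and 0.09 on the values as deposited. On the probe set 1390412_at the difference was -0.13 ± 0.15, and 0.01 on the values as deposited. The probe set 1376972_at disagreed with both: repleted rat 3 read 15.96 where the other 6 rats lay between 11.94 and 13.66, and the difference of 0.68 ± 0.56 became -0.40 without that rat. Heph (1368533_at) lay between 16.60 and 16.88 in all 7 rats and differed by -0.08 ± 0.15, with an interval of -0.38 to 0.22, and by 0.03 on the values as deposited. These intervals bound the differences and do not show that the groups were alike.

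Tfrc, the transferrin receptor that takes up plasma iron, varied widely among the deficient rats. Its probe set 1388750_at read 13.74, 13.81, 14.93 and 11.61 there and 12.98, 13.92 and 12.49 in the repleted rats, a difference of -0.39 ± 0.54. Without deficient rat 4 the difference was -1.03, and without repleted rat 3 it was -0.07. The second probe set, 1371113_a_at, differed by -1.14 ± 0.57 (adjusted p 0.433), and by -0.67 without repleted rat 3. Hmox1, the inducible heme oxygenase that frees iron from heme, read 14.16, 14.32 and 13.72 in the repleted and 13.31, 13.88, 13.71 and 14.44 in the deficient rats. The difference was 0.23 ± 0.25, and -0.17 under median centring. All 7 rats lay above the 3 control samples, whose mean was 12.03.

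Alox15, a lipoxygenase that oxidizes polyunsaturated fatty acids, differed more between control and deficient rats than the iron genes above. It read 13.56, 12.33, 11.74 and 12.84 in the deficient rats and 7.82, 7.73 and 6.54 in the control samples. The repleted rats read 11.53, 12.36 and 6.51, so that rats 1 and 2 lay near the deficient rats and rat 3 just under the lowest control. The difference was -2.48 ± 0.87 (unadjusted p 0.00928, adjusted p 0.301). Without repleted rat 3 it was -0.67 ± 0.59 (adjusted p 0.846), so most of its size came from 1 array.

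**Figure D2:**
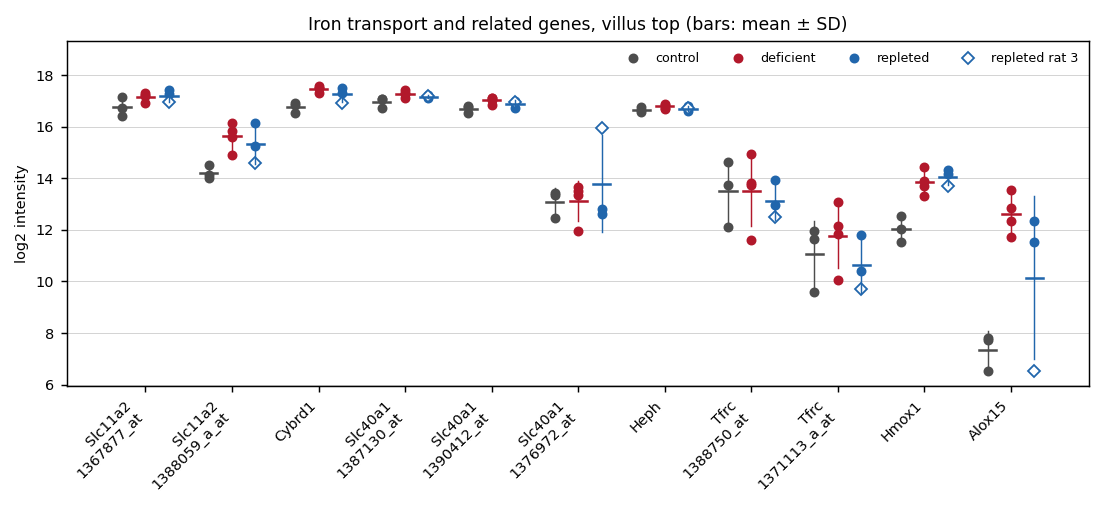
Log2 intensity of the iron genes, Hmox1 and Alox15 in each control (grey), deficient (red) and repleted (blue) villus top sample, with repleted rat 3 as an open diamond; horizontal bars are means and vertical lines ± 1 SD. The deficient and repleted ranges of Slc11a2 and Cybrd1 overlap, and Alox15 reads 6.51 in repleted rat 3 against 11.53 and 12.36 in the other repleted rats.

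Of 24 measured genes of iron handling, 11 were higher and 13 lower in the repleted rats, with a median difference of -0.03. Over all probe sets 15279 were higher and 15763 lower, with a median of -0.01. Without repleted rat 3 the iron counts were again 11 and 13, with a median of -0.06. The member with the lowest p was Lcn2, lipocalin 2, which binds bacterial iron carriers: it read 8.12, 8.96 and 8.94 against 7.90, 6.37, 7.98 and 5.79, with no overlap and a difference of 1.66 ± 0.75 (adjusted p 0.382). These levels are below 8.98, the 40th percentile of all levels, and so among the dim probe sets. Tfr2, a sensor of transferrin-bound iron, differed by -1.24 ± 0.83, and by -0.46 without repleted rat 3. Its group means of 7.43 and 8.67 were dim too. Slc25a37 (mitoferrin 1, which carries iron into mitochondria) differed by -0.80 ± 0.54, and by -0.41 without repleted rat 3. Ncoa4, the receptor that delivers ferritin to lysosomes, was singled out after its values were seen. It read 11.48, 11.32 and 16.32 in the repleted and 13.03, 12.88, 12.89 and 11.67 in the deficient rats, a difference of 0.42 ± 0.86 that became -1.21 without repleted rat 3.

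Among 16 genes of heme synthesis, breakdown and transport, 6 were higher and 10 lower, with a median of -0.19. Repleted rat 3 lay below all other top samples in 9 of the 16, against 20.4% of genes over the whole array, and without it 10 were higher and 6 lower, with a median of 0.14. Fech, which inserts iron into protoporphyrin, read 11.66, 11.62 and 8.14 against 11.25 to 12.07 in the deficient rats. The difference of -1.24 ± 0.51 became -0.07 without repleted rat 3. Alad, an early enzyme of the same pathway, showed the same arrangement with 12.11, 11.91 and 10.21 against 11.98 to 12.41. Flvcr1, a heme exporter, read 13.98, 14.18 and 15.36 against 13.48 to 14.06, a difference of 0.75 ± 0.27 and 0.32 without repleted rat 3.

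Hypoxia-inducible and glycolytic genes split by the same rat. Of 29 measured, 9 were higher and 20 lower with all 3 repleted rats (median -0.11), and 19 higher and 10 lower without rat 3 (median 0.08). Pgk1, a glycolytic enzyme, read 16.68, 17.00 and 15.73 against 16.55 to 17.13, a difference of -0.44 ± 0.22 and -0.07 without rat 3. Loxl2, a lysyl oxidase, differed by -0.71 ± 0.30 and by -0.25 without rat 3. Kdm3a, an oxygen-dependent histone demethylase, read 12.16, 12.62 and 12.57 against 11.74 to 12.20, a difference of 0.50 ± 0.20 and 0.44 without rat 3. Pgk1 and Kdm3a had adjusted p values of 0.429 and 0.334.

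**Figure D3:**
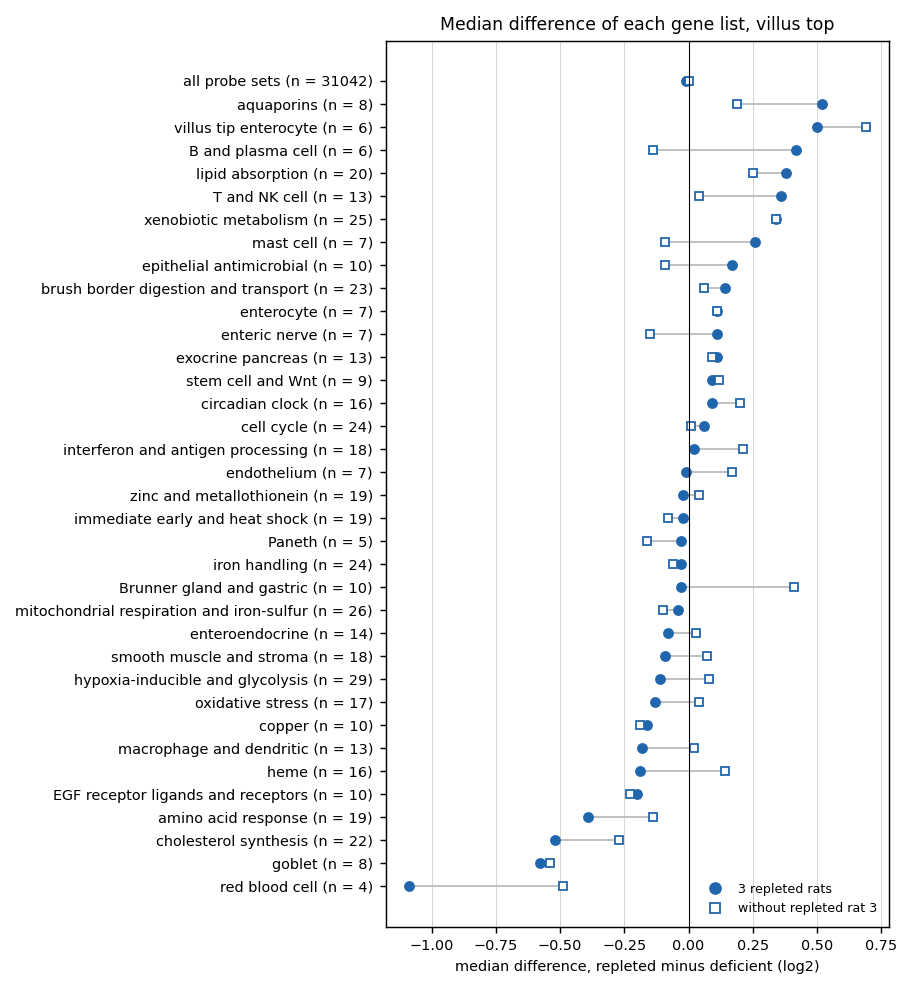
Median log2 difference (repleted minus deficient) of the measured members of each of the 35 gene lists, with the 3 repleted rats (filled circles) and without repleted rat 3 (open squares); n is the number of genes, and the row for all probe sets is at the top. Goblet cell markers lie at -0.58 and -0.54, and villus tip markers at 0.50 and 0.69, while the heme list passes from -0.19 to 0.14.

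Goblet cell markers were lower in the repleted rats, whether or not rat 3 was counted. Of 8 measured, 7 were lower and 1 higher with a median of -0.58, and all 8 were lower without rat 3, with a median of -0.54. An unadjusted p under 0.05 in the lower direction was reached by 6 of the 8, against 7.74% of genes over the array, and by 5 of the 8 without rat 3, against 4.04%. Groups did not overlap in 2 of the 8, Spink4 and Zg16, where 3.28% of genes were separated in the lower direction. Spink4, a secreted protease inhibitor of goblet cells, had the largest difference. It read 11.02, 9.26 and 11.15 in the repleted and 12.18, 12.72, 13.72 and 12.15 in the deficient rats, with no overlap, and 12.37 to 12.40 in the control samples. The difference was -2.22 ± 0.60 (unadjusted p 0.00116, adjusted p 0.228), and -2.56 ± 0.67 without rat 3. In bulk sections, fewer goblet cells and less RNA per goblet cell cannot be told apart.

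The mucin Muc2, the main gel-forming component of intestinal mucus, read 15.93, 16.84 and 16.04 against 17.02, 16.90, 16.87 and 16.72. Repleted rat 2 lay among the deficient rats and the other repleted rats below them, with a difference of -0.61 ± 0.18 (adjusted p 0.265). Without repleted rat 3 it was -0.49 (limma adjusted p 0.62), and without repleted rat 2 it was -0.89 (adjusted p 0.03). Tff3, the trefoil peptide of goblet mucus, read 15.84, 16.66 and 16.34 against 16.62 to 16.99, a difference of -0.55 ± 0.18. Zg16, a lectin of the mucus layer, read 16.31, 16.75 and 16.72 against 17.03, 17.10, 16.95 and 16.90, with no overlap and a difference of -0.40 ± 0.15. Agr2, which folds mucins in the endoplasmic reticulum, differed by -0.96 ± 0.40. Clca1, a secreted metalloprotease, differed by -0.51 ± 0.48, and Fcgbp, a mucus protein, by 0.05 ± 0.18 and by -0.23 under median centring. Spdef, the transcription factor of goblet cell maturation, read 9.20, 11.20 and 8.86 against 10.40 to 10.85. Its difference of -0.83 ± 0.39 was -0.39 without rat 3 and -1.56 without repleted rat 2, where its adjusted p was 0.0367. For Muc2, Tff3 and Zg16 the control means of 16.43, 15.91 and 16.44 lay below the deficient means of 16.88, 16.83 and 16.99. The repleted means stood between the controls and the deficient rats for Tff3 and Zg16. For Muc2 and Spink4 they were 16.27 and 10.48, below the control means of 16.43 and 12.39. Averaged over the 8 markers, the repleted rats read 13.98, 13.95 and 14.15, below every control (14.32, 14.80 and 14.71). The deficient rats read 14.66, 14.77, 15.15 and 14.54 and overlapped the controls. At the villus bottom of the same rats the median difference of the goblet list was -0.32.

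Markers of villus tip enterocytes, the most mature cells of the villus, pointed the other way. Of 6 measured, 5 were higher in the repleted rats with a median of 0.50, and all 6 without rat 3, with a median of 0.69. Groups did not overlap in 3 of the 6, Creb3l3, Ada and Nt5e, where 3.45% of genes were separated in the higher direction. An unadjusted p under 0.05 was reached by 2 of the 6, against 5.24% of genes, and by 1 without rat 3, against 3.18%. Creb3l3, a transcription factor of enterocyte lipid metabolism, read 16.48, 16.26 and 16.27 in the repleted and 15.37, 14.42, 15.28 and 16.22 in the deficient rats. Deficient rat 4 lay just under the repleted rats, and the control mean was 16.34. The difference was 1.01 ± 0.28 (adjusted p 0.234), and 1.31 without deficient rat 4, with an adjusted p of 0.033. Without repleted rat 3 it was 1.05 (limma adjusted p 0.437). Ada, adenosine deaminase, read 17.30, 17.24 and 17.26 against 16.93, 16.80, 16.51 and 17.14, a difference of 0.42 ± 0.17. Nt5e, the ectonucleotidase CD73, differed by 0.77 ± 0.47. Apoa4, an apolipoprotein of chylomicrons, differed by 0.57 ± 0.57, Slc28a2, a nucleoside transporter, by 0.38 ± 0.39, and Krt20, a keratin of mature enterocytes, by -0.15 ± 0.17. Krt20 was 0.11 without rat 3, and Slc28a2 was -0.01 under median centring.

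The mean level of the tip markers in deficient rats 1 to 4 was 15.31, 14.99, 14.71 and 15.83, and in repleted rats 1 to 3 it was 15.95, 15.77 and 15.41. Repleted rats 2 and 3 therefore lay below deficient rat 4. The list median was 0.27 without deficient rat 3 and 0.80 without deficient rat 4. The gap between top and bottom arrays differed between rats too. In each rat's top array the tip markers exceeded those of its own bottom array by 1.28 to 2.23 in 6 rats and by 4.15 in repleted rat 3. For general enterocyte markers the figures were 0.81 to 1.10 and 3.33, and for smooth muscle and stroma markers -0.33 to 0.01 and -3.01. Within the repleted group these figures moved with rat 3. Goblet markers were lower at the top than at the bottom in every rat compared. Their gap was -1.60, -1.45 and -1.61 in repleted rats 1 to 3, and -1.21, -1.23, -0.74 and -1.49 in deficient rats 1 to 4. The part of these top to bottom gaps in the goblet and tip marker differences was not tested.

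**Figure D4:**
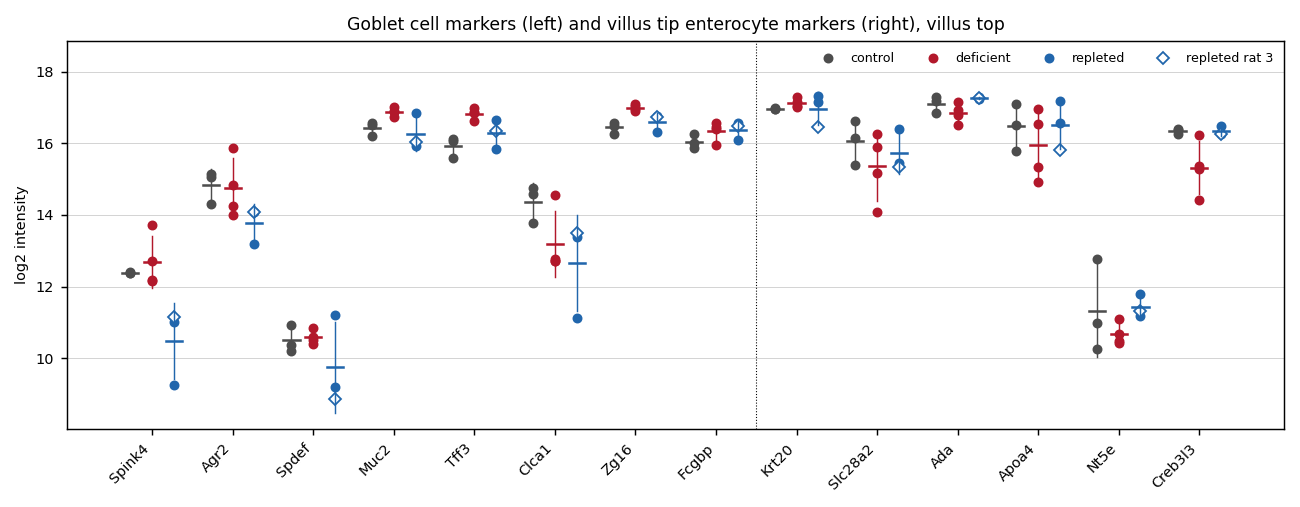
Log2 intensity of the 8 goblet cell markers (left of the dotted line) and 6 villus tip markers (right) in control (grey), deficient (red) and repleted (blue) villus top samples, repleted rat 3 as an open diamond, with means and ± 1 SD; each set is ordered by its difference. All repleted rats lie below all deficient rats in Spink4 and Zg16, and above them in Ada, Nt5e and Creb3l3.

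Genes of fat absorption, which takes place in mature enterocytes, were mostly higher in the repleted rats. Of 20 measured, 17 were higher with a median of 0.38, and 16 without rat 3 with a median of 0.25. Plin2, which coats lipid droplets, read 16.67, 16.57 and 16.68 against 15.88, 15.21, 14.94 and 16.93. Deficient rat 4 lay above all repleted rats, and the difference of 0.90 ± 0.32 (adjusted p 0.303) became 1.30 without that rat, with an adjusted p of 0.0453. Without repleted rat 3 it was 0.88 (limma adjusted p 0.609). Dgat1, the last enzyme of triglyceride synthesis, read 16.25, 16.14 and 16.30 against 15.87, 15.38, 15.27 and 16.33, again with deficient rat 4 highest, a difference of 0.52 ± 0.21. Slc27a4, a fatty acid transport protein, differed by 0.91 ± 0.33 and by 0.32 without repleted rat 3, which read 16.69. The list median was 0.60 without deficient rat 4, 0.23 without deficient rat 3 and 0.12 under median centring.

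Of 25 genes of xenobiotic metabolism, 18 were higher with all repleted rats and 21 without rat 3, both with a median of 0.34. That median was 0.03 under median centring, 0.20 without deficient rat 2 and 0.55 without deficient rat 4. The cytochrome P450 Cyp3a18 read 14.21, 13.66 and 14.93 against 12.67, 12.55, 11.71 and 14.71, a difference of 1.36 ± 0.45. Without deficient rat 4 it was 1.96, with an adjusted p of 0.0254. Sult1c2, a sulfotransferase, differed by 1.49 ± 0.55.

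Among 23 digestive enzymes and transporters of the brush border, 14 were higher and 9 lower, with a median of 0.14 that was -0.13 under median centring. Treh, which splits trehalose, read 14.55, 14.47 and 14.79 against 13.45, 13.58, 12.84 and 14.38, with no overlap and a difference of 1.04 ± 0.27 (adjusted p 0.228). Without deficient rat 4 it was 1.31, with an adjusted p of 0.033, and without repleted rat 3 it was 0.95 (limma adjusted p 0.458). The controls read 14.55 to 14.77, level with the repleted rats. Anpep, aminopeptidase N, differed by 0.79 ± 0.29. Slc34a2, a sodium-phosphate transporter, read 6.62, 7.21 and 6.32 against 9.44, 9.43, 8.57 and 8.82, a difference of -2.35 ± 0.74 (adjusted p 0.272). Its controls were higher still, at 10.88 to 11.25, so the repleted rats lay farther from the controls than the deficient rats did. All repleted values of Slc34a2, and the deficient values of 8.57 and 8.82, lay in the dim range below 8.98.

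Cholesterol synthesis genes were mostly lower, and by less without rat 3. Of 22 measured, 20 were lower with a median of -0.52, and 18 without rat 3 with a median of -0.27, while median centring gave -0.86. Hsd17b7, an enzyme of the late pathway, read 11.52, 11.42 and 8.75 against 12.36, 11.95, 12.12 and 11.15, a difference of -1.33 ± 0.51 and -0.43 without rat 3, while a second Hsd17b7 probe set differed by 0.25. Pmvk, phosphomevalonate kinase, read 11.72, 12.05 and 8.69 against 11.70 to 12.48 and differed by -1.32 ± 0.52, and by -0.26 without rat 3. Srebf2, the transcription factor that drives the pathway, went against its list: it read 13.52, 13.65 and 14.76 against 12.84 to 13.29, with no overlap and a difference of 0.91 ± 0.27 (adjusted p 0.263), and 0.52 without rat 3.

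The 4 red blood cell transcripts had a median of -1.09, and of -0.49 without rat 3. Hbb, β-globin, read 16.24, 15.14 and 13.25 in the repleted and 16.74, 16.08, 15.00 and 16.97 in the deficient rats, and 13.57 to 13.84 in the controls. The difference was -1.32 ± 0.52, and -0.50 without rat 3. Globin copies are nearly identical in sequence, so their probe sets may not separate them. Alas2, the erythroid enzyme that starts heme synthesis, read 11.46, 11.18 and 7.18 against 10.71 to 12.61, a difference of -1.86 ± 0.67 and -0.48 without rat 3. Hba-a3, an α-globin, differed by -0.86 ± 0.45 and Slc4a1, the anion exchanger of red cells, by 0.05 ± 0.56.

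Of 10 copper genes 8 were lower, with a median of -0.16. The groups did not overlap in 1 of these 10 genes and in 1 of 19 zinc genes, both lower, where 3.28% of genes were separated in that direction. Commd1, which takes part in copper export, read 11.56, 10.99 and 10.63 against 11.80, 11.85, 12.29 and 11.90, with no overlap and a difference of -0.90 ± 0.24 (adjusted p 0.228). Zinc transporters and metallothioneins were split 9 to 10 with a median of -0.02, and of 0.14 on the values as deposited. Slc30a6, a zinc transporter of the Golgi, read 11.27, 11.11 and 10.70 against 11.45 to 11.78, with no overlap and a difference of -0.62 ± 0.21. Slc30a10, an exporter of manganese, differed by -0.90 ± 0.34, and by -0.43 without rat 3. Slc30a7, another Golgi zinc transporter, differed by -0.66 ± 0.29.

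Markers of other cell types were lower in some lists and higher in others, and several medians changed sign without rat 3. For smooth muscle and stroma (18 genes) the median was -0.09 with rat 3 and 0.07 without it. For macrophages and dendritic cells (13 genes) it was -0.18 and 0.02, for enteroendocrine cells (14 genes) -0.08 and 0.03, and for exocrine pancreas (13 genes) 0.11 and 0.09. The elastase Cela1 of the last list read 7.77, 9.85 and 6.53 against 9.77 to 11.50, a difference of -2.76 ± 0.60 (adjusted p 0.228). The Cela1 difference was -2.00 without repleted rat 3 (limma adjusted p 0.399) and -3.66 without repleted rat 2 (adjusted p 0.00977). That list had 7 members higher and 6 lower, with 1 separated in each direction: the carboxypeptidase Cpa1 was higher by 1.45 ± 0.81, and Cpb1 differed by -1.60 ± 0.74. Pnliprp1, a lipase-related protein, differed by 1.45 ± 0.79 with overlap. Both group means of Cpb1 (7.35 and 8.95) and of Pnliprp1 (8.74 and 7.29) lay in the dim range. For B and plasma cells (6 genes) the median was 0.42, and -0.14 without rat 3. Jchain, the joining chain of secreted antibodies, read 11.52, 10.52 and 15.04 against 9.89 to 13.15. For Brunner gland and gastric cells (10 genes) the median was -0.03, 0.41 without rat 3 and 0.24 on the values as deposited. The pepsinogen Pgc read 9.41, 8.46 and 9.30 against 6.07 to 6.53, with no overlap and a difference of 2.73 ± 0.81 (adjusted p 0.262). Its deficient values lay in the dim range. In this list 5 members were higher and 5 lower, and the groups did not overlap in 3 of the higher and 1 of the lower ones, against 3.45% and 3.28% of genes. The gastric mucin Muc5ac and the gastrokine Gkn1 were also separated, by 2.19 ± 0.66 and 2.22 ± 0.80, with deficient levels of 5.96 to 7.56 and 6.01 to 8.77 that lie in the dim range. The separated lower member, the gastrokine Gkn2, read 7.38, 7.81 and 7.20 against 8.05 to 9.67, a difference of -1.09 ± 0.73. Cpa1, Cpb1 and Gkn2 were singled out after their values were seen. The cell cycle list (24 genes) had a median of 0.06, and of -0.06 under median centring, with members on both sides. Mcm5, a replication helicase subunit, differed by 2.29 ± 0.74 and the mitotic kinase Aurka by -2.16 ± 0.58. The deficient mean of Mcm5 (8.21) and the repleted mean of Aurka (6.96) lay in the dim range.

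Outside the lists, the probe sets named here are those with the lowest unadjusted p among the ones whose groups did not overlap. Such separation occurred in 1086 probe sets higher in the repleted rats (3.50%) and 1053 lower (3.39%). The values chose these genes, so the p values describe them and support nothing further. Among the higher ones, several were dim in the deficient rats. Gabrr1, a GABA receptor subunit, read 9.70, 9.15 and 8.82 against 5.86 to 6.07, a difference of 3.25 ± 0.66 (adjusted p 0.186). Myo9b, a motor protein, differed by 3.10 ± 0.59, although deficient rat 1 read 8.00 where the other deficient rats read 5.84 to 6.08. Xylt1, which starts proteoglycan chains, read 9.44, 9.42 and 9.36 against 5.99 to 6.91, a difference of 3.09 ± 0.62. Klf15, a transcription factor of metabolic genes, read 9.40, 9.49 and 9.14 against 6.43 to 7.72, a difference of 2.41 ± 0.57, with the controls higher, at 9.69 to 11.40. Ninj2, an adhesion protein, differed by 2.39 ± 0.52, and Cbfa2t3, a transcriptional corepressor, by 2.07 ± 0.45.

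Of the higher genes, those bright in both groups were Gse1 and C1h11orf24. Gse1 read 12.63, 12.37 and 12.39 against 10.85 to 11.80, a difference of 1.08 ± 0.25. C1h11orf24 read 14.51, 14.71 and 15.16 against 13.91, 13.24, 13.76 and 14.46, a difference of 0.95 ± 0.22 (adjusted p 0.228) that was 1.16 without deficient rat 4, with an adjusted p of 0.0254. The controls, at 14.77 to 15.12, lay near the repleted rats. Serpinb7 differed by 3.05 ± 0.73 and Smim18 by 2.75 ± 0.63, both with repleted rat 3 highest. Without that rat they differed by 2.22 and 2.16. Other probe sets of these genes differed by less or the other way. For Myo9b the second probe set differed by 0.23, for Gabrr1 by 1.05 and for Serpinb7 by 0.76. The other probe sets of Klf15 differed by 0.99 and -0.06, those of Gse1 by 0.29 and -0.72, and those of Cbfa2t3 by -0.49 to 0.93.

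Among the lower genes, Tc2n, a C2 domain protein, read 12.29, 13.06 and 12.41 against 13.92, 14.21, 13.84 and 13.63, a difference of -1.31 ± 0.26 (adjusted p 0.186) and -1.22 without rat 3. The controls read 12.58 to 13.26, level with the repleted rats. Med14, a subunit of the Mediator complex, read 10.36, 10.64 and 10.59 against 11.42 to 11.75, a difference of -1.05 ± 0.24 and -1.08 without rat 3. Its controls, at 10.26 to 10.64, were also level with the repleted rats. Ctsl, the lysosomal protease cathepsin L, read 12.77, 12.48 and 11.84 against 13.13 to 13.73, a difference of -1.01 ± 0.23. Slc25a13, the mitochondrial aspartate-glutamate carrier, read 11.35, 11.04 and 10.91 against 11.63 to 12.34, a difference of -0.94 ± 0.21, with controls of 12.05 to 12.24 at the deficient level. Cops2, a subunit of the COP9 signalosome, differed by -1.23 ± 0.27, Pet100, an assembly factor of cytochrome c oxidase, by -1.30 ± 0.30, and the zinc finger gene Zfp451 by -1.40 ± 0.32. Without rat 3 these differences were -0.99, -0.81 and -1.21. Sox2, Zfp267 and Ptges3l1 differed by -2.81 ± 0.63, -2.78 ± 0.63 and -2.75 ± 0.58, with repleted means of 8.04, 6.70 and 7.26 in the dim range. Here too the further probe sets differed by less: Med14 by -0.12, Cops2 by -0.18 and -0.35, Zfp267 by -0.37 and Zfp451 by -0.42. Those of Ctsl, Slc25a13 and Pet100 differed by -1.83, -0.72 and -1.63, while 1 of the further Sox2 probe sets differed by 2.08. Without rat 3 those of Ctsl, Slc25a13 and Pet100 differed by -0.42, -1.27 and -0.24, and that of Sox2 by 1.04.

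**Figure D5:**
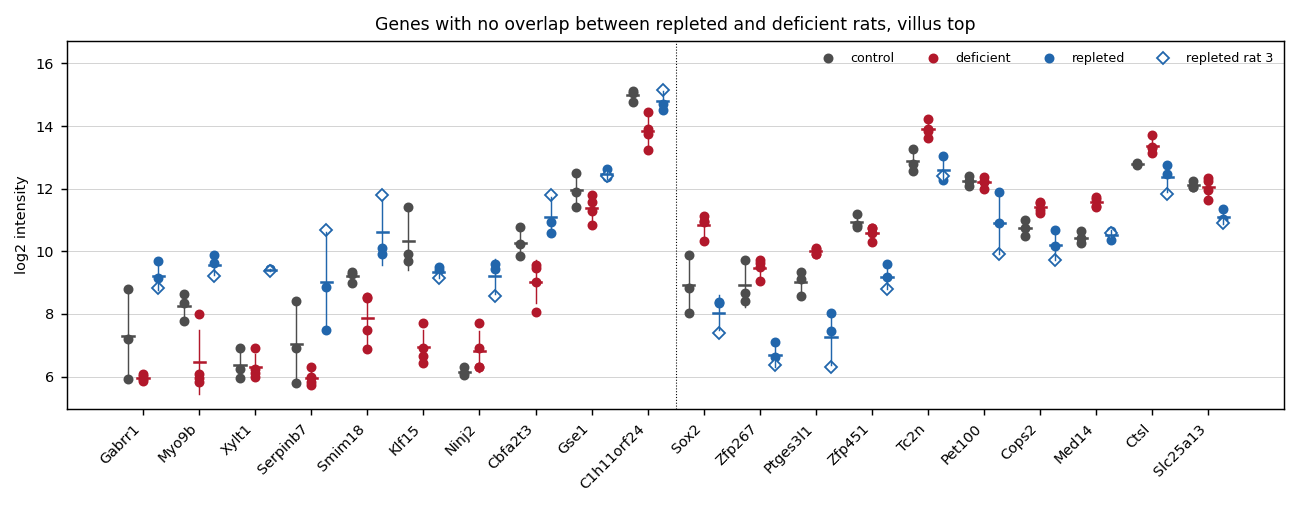
Log2 intensity of the 10 genes higher (left of the dotted line) and 10 genes lower (right) in repleted rats, chosen because repleted and deficient rats do not overlap, in control (grey), deficient (red) and repleted (blue) villus top samples with means and ± 1 SD; repleted rat 3 is an open diamond. In Tc2n and Med14 the control samples lie with the repleted rats, and in Slc25a13 with the deficient rats.

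Leaving out repleted rat 3 brought other genes to the lowest p values, again chosen by their values. Among the higher ones were Adgra3 (3.08 without rat 3, 2.59 with it), C1qtnf1 (2.03 and 1.26), Gramd1b (1.18 and 0.81) and Mepce (1.15 and 0.72). The second probe sets of Adgra3, C1qtnf1 and Gramd1b differed by -0.52, 0.60 and 0.65 without rat 3, and by -0.25, -0.55 and 0.46 with it. The lower ones were Klra5, Abraxas1, Cdc14b, Nectin2, Cwc22, Cdt1, Slc5a3, Atp8a1, Pdia5 and Togaram1. Nectin2, an adhesion protein, read 6.49, 7.64 and 10.77 in the repleted rats, against 9.33 to 10.33. The difference without rat 3 was -2.70 ± 0.49 (adjusted p 0.139), and -1.46 with it. Pdia5, a protein disulfide isomerase, read 8.69, 9.91 and 11.47 against 11.01 to 11.84, a difference of -1.99 without rat 3 and -1.27 with it. Atp8a1, a phospholipid flippase, read 10.20, 8.16 and 12.03 against 10.94 to 11.48. Other probe sets, also without rat 3, differed by 0.30 and 0.00 for Nectin2 and by -0.35 and -0.43 for Atp8a1. In the named probe sets of Nectin2, Pdia5 and Atp8a1 rat 3 lay with or above the deficient rats while rats 1 and 2 lay below.

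The genes in which repleted rat 3 lay farthest outside the other 19 top samples are described without a test. The colony-stimulating factor Csf1 read 16.41 where all others lay between 11.38 and 12.89, and the calmodulin kinase Camk2g read 14.67 where the others reached 10.66 at most. Grm8, Cyth1, Kmt2d, Vwa3a, Rsph10b, Tcp11, Dpm1 and Slc7a14 were also far above the rest. On the low side, Dicer1, the nuclease that cuts microRNA precursors, read 6.09 where the others lay between 10.81 and 11.94, and Hddc3 read 6.55 against 11.73 to 12.38. Dnttip2, Grk5, Nop16, Bclaf1, Gosr1, Rbfa, Vps13b and Nfrkb showed the same arrangement.

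Whether the repletion difference depended on the position along the villus was tested within rats, as the top difference minus the bottom difference. Of 31042 probe sets 2 were called (0.00644%), and 3167 had an unadjusted p under 0.05 (10.2%). Without repleted rat 3 there were 2 calls again (0.00644%), Shroom3 and the unnamed 1384247_at, and 2222 had an unadjusted p under 0.05 (7.16%). One was Shroom3, an actin-binding protein that shapes the apical side of epithelial cells. At the top it read 10.48, 10.68 and 12.74 in the repleted and 10.44, 9.97, 10.15 and 10.56 in the deficient rats. At the bottom it read 6.90, 6.34 and 9.63 in the repleted and 9.64, 9.57, 8.79 and 9.76 in the deficient rats. The difference was 1.02 at the top and -1.82 at the bottom, so that the segments differed by 2.84 ± 0.39 (limma adjusted p 0.041), and by 3.12 without repleted rat 3 (adjusted p 0.0239). The other, 1397923_at, has no gene symbol in the probe annotation. At the top it read 8.64, 8.33 and 7.99 against 5.94 to 7.11, and at the bottom 5.95, 6.35 and 6.12 against 7.25 to 8.86. The segments differed by 3.82 ± 0.55 (adjusted p 0.041), and by 3.98 without repleted rat 3 (adjusted p 0.0695). No probe set was called under median centring or without any one of deficient rats 1, 2 and 4, whereas 23 were called without repleted rat 2. In deficient rat 1 the exocrine pancreas markers were lower at the top than at the bottom, by a difference of -7.52, against -0.60 to 0.37 in the other 6 rats. The bottom array of repleted rat 3 was unusual too: Slc11a2 (1367877_at) read 12.46 there, against 16.00 to 17.21 in the bottom arrays of the other 6 rats.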

How the data were processed

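The deposited values are linear microarray intensities of the rat duodenal villus, with 1 value for each probe set of an array. Per the labels, RNA was isolated with Tri Reagent and labelled with biotin by the standard Affymetrix protocol, and the signal algorithm is not given in the sources used here. The authors had scaled each of the 7 arrays compared to 1 trimmed mean, as the values show, which hides any change common to most transcripts.

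Values were taken as log2 after adding 44, their 10th percentile over the villus arrays. The 44 villus arrays were quantile normalized, and nearly identical arrays (control rats 1 and 2, Belgrade rats 1 and 2, robust SD of their differences under 0.2) were averaged. The 20 counted top samples of 6 groups were fitted with limma 3.58.1 (R 4.3.3; lmFit, eBayes with trend), leaving 14 residual degrees of freedom, or 13 without repleted rat 3. No filter on dim probe sets was used. P values are two-sided, adjusted by Benjamini-Hochberg over 31042 probe sets, and called under 0.05. The script was tested on simulated data. The annotation named 1 gene for 20826 probe sets, several for 436 and none for 9780. Lists use the brightest probe set of each gene.

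Named genes are Slc11a2, Cybrd1, Slc40a1, Heph, Tfrc, Hmox1 and Alox15. Up to 10 more in each direction had the lowest p among probe sets whose groups do not overlap, that differ by at least 0.5 and whose higher mean exceeds the 40th percentile, with and without repleted rat 3. Others are up to 3 members of a list with the lowest p, and up to 10 in each direction in which repleted rat 3 lies farthest outside the rest. All members of the goblet, villus tip and red blood cell lists are given as well. The members and lists were chosen with earlier results of these data known.

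The fit has no block for rat number, since deviations of same-numbered repleted and deficient rats correlated at -0.01, 0.03 and -0.02. The alternatives were other scalings, pseudocounts, variance models, sample sets, array weights, Xist as a covariate, a dim filter and leaving out each rat.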

Additional observations from a re-analysis of the deposited data

Results flagged for a closer look

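In 8 of 137 sets of 4 deficient values, 1 rat lay farther from the rest than Dixon's 95% limit allows, and chance alone gives about 1 in 20. Myo9b read 8.00 in deficient rat 1 and 5.84 to 6.08 in the others. Cdc14b read 8.40 in deficient rat 3 and 9.17 to 9.33 in the others. Clca1 read 14.55 in deficient rat 3 and 12.70 to 12.76 in the others. Ncoa4 read 11.67 in deficient rat 4 and 12.88 to 13.03 in the others.

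The mean level of the cell cycle list was 10.03 in deficient rat 3, against 9.02 to 9.16. In deficient rat 4 the mean of the iron handling list was 12.06 against 12.39 to 12.41, that of the T and NK cell markers 9.59 against 9.65 to 9.66, and that of the xenobiotic list 12.86 against 12.03 to 12.09.

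In limma on each rat's top minus bottom values, the repleted minus deficient difference was called unequal between top and bottom in 2 probe sets. It was 2.84 higher at the top for Shroom3 and 3.82 higher for the unnamed 1397923_at, both with an adjusted p of 0.041. Without repleted rat 3 the adjusted p values were 0.0239 and 0.0695. No probe set was called under median centring or with the 7 rats alone.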

How the results depend on the processing

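With 3 and 4 rats, the number of arrays limits precision, and the dim range below 8.98 holds many of the widest differences. The count of 0 calls held under the other scalings and pseudocounts, the dim filter, array weights, Xist as a covariate, robust hyperparameters, all 22 rats counted separately and the 7 arrays alone. It was 6 without the trend and 1 with the rat number as a replicate block among the 7 arrays. Leaving out 1 rat gave 0 to 55 calls. Without repleted rat 3 the counts were 4 with a pseudocount of 11, 3 without the trend, 271 with the replicate block, and 0 to 43 on leaving out a further rat, where a lone repleted rat was assumed to vary like the other groups. The numbers do not pair the rats. The 2 calls on the segments became 0 under median centring, 0 with the 7 rats alone and 0 with the replicate block, and 0 to 23 on leaving out 1 rat. The cause of these shifts was not tested.

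Of 1933 pairs of gene and setting, 1889 kept direction and side of the threshold, 28 turned direction and 16 passed the threshold. None of these genes was called in the main fit, and many were chosen because their groups did not overlap. Much of the unchanged count was therefore set by the choice of genes and is no measure of stability. Median centring gave -0.08 for Slc11a2 (1367877_at), -0.17 for Hmox1, -0.23 for Fcgbp and -0.01 for Slc28a2. The values as deposited gave 0.09 and 0.01 for Slc40a1 (1387130_at, 1390412_at) and 0.03 for Heph. Array weights gave -0.29 for Slc40a1 (1376972_at), -0.86 for Ncoa4 and 0.05 for Krt20, the Xist covariate -0.01 for Fcgbp, and the replicate block -0.03 for Slc11a2 (1367877_at). On leaving out 1 rat, Slc11a2 ranged from -0.06 to 0.17 (1367877_at) and from -0.71 to 0.07 (1388059_a_at), Slc40a1 (1376972_at) from -0.40 to 1.26 and Tfrc (1388750_at) from -1.03 to 0.08. Ncoa4 ranged from -1.21 to 1.28, Jchain from -0.27 to 1.99, Krt20 from -0.32 to 0.11 and Clca1 from -0.93 to 0.26. Fcgbp ranged from -0.08 to 0.19, Slc4a1 from -0.50 to 0.42 and Slc28a2 from -0.04 to 0.68. Besides the calls given above, Myo9b and Ninj2 passed without the trend (adjusted p 0.0332), Serpinb7, Ptges3l1, Tc2n, Cops2 and Aurka without repleted rat 2 (0.0257 to 0.0427), and Pet100 without repleted rat 1 (0.00718).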

Other observations

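Among gene groups outside the comparisons above, genes of the amino acid response, which cells switch on when amino acids or protein folding run short, had a median difference of -0.39 over 19 genes, and -0.14 without repleted rat 3. Vldlr, a lipoprotein receptor, read 10.64, 11.25 and 8.30 in the repleted and 10.75 to 12.66 in the deficient rats. The difference was -1.65 ± 0.59 in limma (adjusted p 0.303), and -0.77 without repleted rat 3. The immediate early gene Nr4a1 read 10.13, 10.05 and 8.49 against 10.16 to 12.03, with no overlap and a difference of -1.50 ± 0.47 (adjusted p 0.272). Without repleted rat 3 the Nr4a1 difference was -0.96. Hspa1a, an inducible heat shock protein, read 13.61, 14.35 and 13.46 against 12.58 to 13.78, a difference of 0.66 ± 0.29.

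Aquaporins, the water and glycerol channels, had a median of 0.52 over 8 genes, 0.19 without repleted rat 3 and 0.21 under median centring. The 26 genes of mitochondrial respiration and iron-sulfur clusters had a median of -0.04, with 15 lower, and -0.10 without repleted rat 3, with 19 lower. T and NK cell markers had a median of 0.36 over 13 genes, with 8 higher and 5 lower, and of 0.04 without repleted rat 3. Perforin (Prf1), which kills target cells, read 6.76, 8.19 and 6.28 against 8.51 to 9.77, with no overlap and a difference of -2.26 ± 0.92 (adjusted p 0.346). Its repleted values lay in the dim range. The T cell receptor subunit Cd3d went the other way by 1.27 ± 0.60, and by 0.29 without repleted rat 3. It read 11.65 in that rat and 7.26 to 9.05 in the other 6 rats. The B cell surface protein Ms4a1 read 9.00, 7.44 and 9.16 against 5.87 to 6.63, with no overlap and a difference of 2.37 ± 0.75 (adjusted p 0.272) at dim deficient levels.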
